A study of Mus musculus with 72 samples.

Results

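Chromatin accessibility was compared between mouse RAW264.7 cells carrying a short hairpin RNA against NCOR (shNCOR, 3 ATAC-seq libraries) and RAW264.7 cells carrying a hairpin against GFP, a sequence the cells do not have (shGFP, 3 ATAC-seq libraries). RAW264.7 is a macrophage-like line, labelled as BALB/c, monocyte and macrophage. Both groups had been infected with lentivirus, grown in DMEM with 10% FBS and left without any stimulus. Another hairpin, against SMRT (shSMRT, 3 libraries), served for values side by side and for a shared estimate of the spread. The labels give 1 hairpin name per target, so the hairpin, the infected population and the loss of NCOR cannot be told apart. Their ATAC protocol speaks of WT cells in triplicate, but each title names a hairpin, and groups were taken from the titles. Nothing in the labels tells whether replicates are separate cultures, and the p-values cover only the scatter among the libraries at hand, possibly a technical one. The regions studied were the peaks outside the mitochondrial chromosome that reached a value of 10 in at least 3 of the 6 shNCOR and shGFP libraries. They numbered 51018 of the 51984 peaks of the table, and a value is the number of reads in a peak scaled to 10000000 reads of its library. The value that had to reach the limit was 10.1 at the lowest peak inside it and 9.9 at the highest peak outside it.

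NCOR, the product of Ncor1, is a corepressor: it carries no DNA-binding domain of its own and is brought to chromatin by nuclear receptors without their ligand and by other transcription factors. It binds the histone deacetylase HDAC3 together with TBL1X, TBL1XR1 and GPS2, and the removal of acetyl groups from histones keeps nearby genes at a low level. In macrophages it is known for holding back targets of retinoic acid receptors, liver X receptors (LXR) and PPARs and part of the inflammatory genes. ATAC-seq reads mark DNA that the Tn5 transposase could reach, so a higher value means more open chromatin in the population. A change in the share of cells with an open site and a change in how open the site is per cell cannot be told apart in such bulk samples.

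The promoters of 6 genes with a called peak over their start are shown first, because later results return to them and because they differ in the motifs they hold. Each is the 250 bases before the start of transcription in RefSeq (GRCm38.p6, the build mm10), read 5′ to 3′ on the gene's strand, with matches to 12 motifs in capitals. The Rarb window (chr14:16575477-16575726, minus strand) holds a direct repeat (GNTCA, 6 bases, GNTCA) of 2 nuclear receptor hexamers with 5 bases between them, the arrangement to which retinoic acid receptors bind. The Plin2 window (chr4:86670060-86670309, minus strand) holds 1 single hexamer, AGGTCA, on the opposite strand. Both windows overlapped peaks that were higher in shNCOR. The Plin2 hexamer, 218 to 213 bases before the start, lies outside the called peak, which ends at chr4:86670192.
Rarb promoter: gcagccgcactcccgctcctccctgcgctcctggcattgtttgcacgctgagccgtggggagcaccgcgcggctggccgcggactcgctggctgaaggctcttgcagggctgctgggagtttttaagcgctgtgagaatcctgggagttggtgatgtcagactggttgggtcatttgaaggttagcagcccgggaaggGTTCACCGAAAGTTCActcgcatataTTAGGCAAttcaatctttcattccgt
Plin2 promoter: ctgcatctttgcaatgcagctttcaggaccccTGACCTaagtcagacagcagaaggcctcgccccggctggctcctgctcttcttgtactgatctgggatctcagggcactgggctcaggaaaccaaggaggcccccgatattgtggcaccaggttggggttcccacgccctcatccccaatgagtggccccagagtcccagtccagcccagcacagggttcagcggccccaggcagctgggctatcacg
The other 4 lay under peaks that were lower in shNCOR. The Cbfa2t3 window (chr8:122699110-122699359, minus strand) holds the PU.1 motif GAGGAAGT. The Fcgr1 window (chr3:96293970-96294219, minus strand) holds the gamma-activated site TTCNNNGAA. The Rsad2 window (chr12:26456453-26456702, minus strand) and the Trim30a window (chr7:104465194-104465443, minus strand) hold the interferon-stimulated response element, searched as GAAA, any 2 bases and GAAA. Capitals also mark an AP-1 motif (TGANTCA) in Rsad2, a nuclear receptor hexamer in Trim30a, and a C/EBP motif (TTGCNNAA) in Rarb, where the direct repeat overlaps a match to TTCNNNGAA.
Cbfa2t3 promoter: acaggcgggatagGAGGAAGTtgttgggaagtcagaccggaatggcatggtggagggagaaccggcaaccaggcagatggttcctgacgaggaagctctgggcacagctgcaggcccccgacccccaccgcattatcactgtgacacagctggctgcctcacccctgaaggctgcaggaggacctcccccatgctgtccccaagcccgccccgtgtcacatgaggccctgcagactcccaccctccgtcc
Fcgr1 promoter: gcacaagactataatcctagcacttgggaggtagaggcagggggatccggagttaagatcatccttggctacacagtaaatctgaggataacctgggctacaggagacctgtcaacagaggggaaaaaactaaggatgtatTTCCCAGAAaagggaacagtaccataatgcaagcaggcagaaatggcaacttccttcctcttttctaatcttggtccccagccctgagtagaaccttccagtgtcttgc
Rsad2 promoter: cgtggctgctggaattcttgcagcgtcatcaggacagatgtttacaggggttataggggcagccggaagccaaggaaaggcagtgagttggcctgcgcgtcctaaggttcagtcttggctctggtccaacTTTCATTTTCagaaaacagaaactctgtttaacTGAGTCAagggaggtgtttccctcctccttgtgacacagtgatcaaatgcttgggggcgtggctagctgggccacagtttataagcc
Trim30a promoter: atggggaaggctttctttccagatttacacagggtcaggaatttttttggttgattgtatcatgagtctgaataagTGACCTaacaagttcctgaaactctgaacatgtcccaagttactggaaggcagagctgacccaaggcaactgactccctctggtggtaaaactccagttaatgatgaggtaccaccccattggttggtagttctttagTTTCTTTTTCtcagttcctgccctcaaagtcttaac
The windows of Abca1, Cxcr4, Ifi44 and Ifih1 hold no match to the fixed letters of any of the 12 motifs. Sites that differ from these letters by a base were not searched for, so such sites may be present. Besides those named, the 12 motifs were the RUNX motif TGTGGT, the E-box TCACGTGA, the NF-kB motif (GGG, 2 bases, TTTCC), the EGR motif GCGTGGGCG and the direct repeat with 4 bases between the hexamers (GNTCA, 5 bases, GNTCA), all searched on both strands.

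The 6 libraries held 7580000, 6060000 and 7880000 reads in shNCOR and 8940000, 10670000 and 10840000 reads in shGFP, so the shNCOR values rest on fewer reads. The share of reads in tested peaks was 54.07, 54.88 and 54.72% in shNCOR and 53.44, 50.09 and 52.64% in shGFP. The 2 groups did not overlap in it (exact permutation test, two-sided, p = 0.1, the smallest that 3 against 3 allows). Ncor1 RNA, measured in separate RNA-seq libraries, was at 3.61, 4.20 and 4.30 RPKM in shNCOR and 18.4, 20.2 and 18.7 RPKM in shGFP. The peak at the Ncor1 start site had 186, 158 and 159 in shNCOR against 154, 170 and 154 in shGFP. Its log2 fold change was 0.07 ± 0.12 (SE; limma, adjusted p = 0.798), and a hairpin acts on RNA, so this peak does not check the labels of the ATAC libraries. All 10 macrophage markers, Spi1, Csf1r and Adgre1 among them, had a tested peak within 1 kb of their start, and none of these 13 peaks was called. Their summed value was 2956 to 3055 in shNCOR and 2580 to 2790 in shGFP. None of 5 lymphocyte markers, 2 of 6 fibroblast and epithelial markers (Col1a1 and Pdgfra) and 1 of 5 neutrophil and mast cell markers (S100a8) had such a peak. Summed values were 81.8 to 90.8 in shNCOR and 83.0 to 104 in shGFP for the fibroblast and epithelial markers, and 127 to 140 in shNCOR and 86.1 to 116 in shGFP for S100a8, the one marker peak called (0.43, higher).

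With the NCOR hairpin, accessibility was called higher and lower at similar numbers of sites, and the lower calls had the larger median size. Of the 51018 peaks, 4428 (8.68%) were called at an adjusted p under 0.05 (limma on log2(value + 5), Benjamini-Hochberg), 2368 of them higher in shNCOR (4.64%) and 2060 lower (4.04%). The shNCOR and shGFP libraries did not overlap at 13235 peaks (25.9%). The median size of a called change was 0.61 on the log2 scale among the higher peaks and 0.90 among the lower ones. Changes of at least 1 numbered 413 higher and 844 lower calls. The median over all peaks was 0.05. Higher calls had a median value of 120 in shNCOR and 76.2 in shGFP, and lower calls 36.6 in shNCOR and 74.6 in shGFP, so in shGFP both kinds of site were about equally open. The split between the directions moved with the scaling: 53.5% of calls were higher as deposited, 43.3% after TMM scaling and 37.2% after scaling to the sum over tested peaks (1500 higher and 2528 lower). Higher calls numbered 1226 without shGFP library 2 and 1577 without shGFP library 3, and lower calls 1203, 1306 and 1149 without shGFP library 1, 2 and 3.

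**Figure D1:**
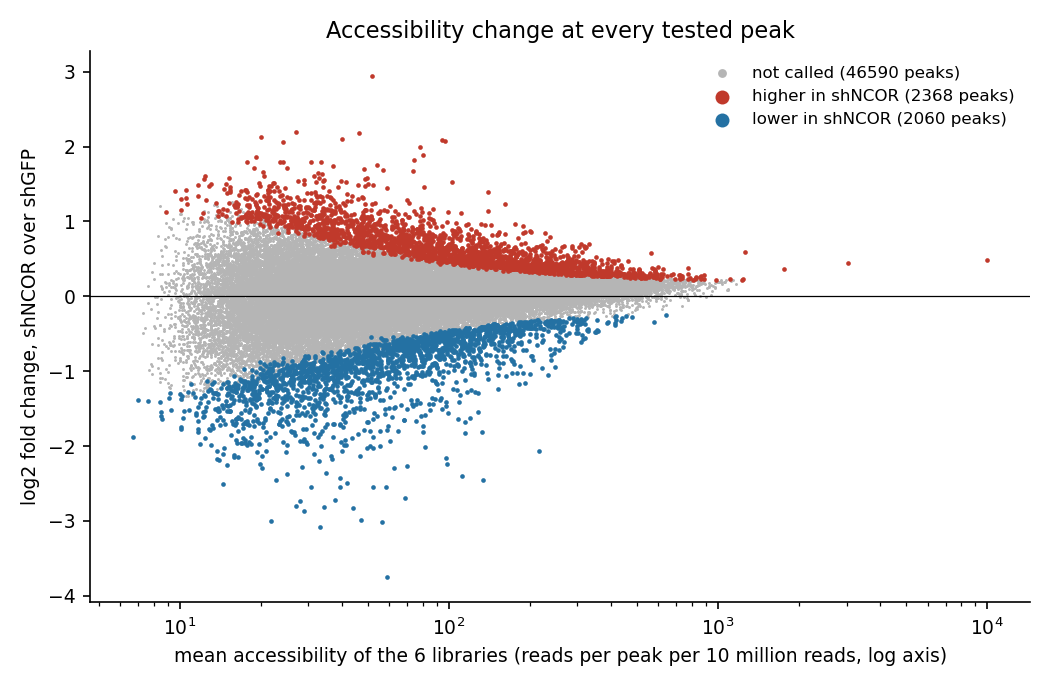
Log2 fold change of shNCOR over shGFP (vertical axis) against the mean accessibility of the 6 libraries (horizontal log axis, reads per peak per 10000000 reads) for the 51018 tested peaks. Peaks called higher in shNCOR (2368) spread to the most open sites, and the lower calls (2060) reach -3.75 at sites of low or middle value.

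The share of called peaks varied with the distance to the start site. Among the 11690 peaks within 1 kb of a start site, 3.16% were higher and 1.51% lower in shNCOR. At 1 to 10 kb these shares were 4.99% and 3.63%, at 10 to 50 kb 5.23% and 4.56%, and beyond 50 kb 4.91% and 6.74%. Introns held 1097 higher and 862 lower calls among 20885 peaks, and intergenic sites 832 and 965 among 17328. Among the 12755 peaks with the lowest mean value (6.7 to 31.2), 2.29% were higher and 4.26% lower, whereas among the 12755 peaks with the highest (134 and above) 7.00% were higher and 2.48% lower. The X chromosome had 13 higher and 30 lower calls among 938 peaks, and each of the numbered chromosomes had a median log2 fold change between 0.01 and 0.08. Peaks in long terminal repeats (LTR), the ends of endogenous retroviruses, were higher at 3.78% and lower at 6.06% of 3944 sites. No test of these shares against each other was made.

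Rarb, which encodes retinoic acid receptor beta and is itself a classic target of retinoic acid receptors, opened over its whole locus. The Rarb promoter peak (chr14:16575333-16575757, mm10) had 183, 124 and 169 in shNCOR against 44.7, 33.8 and 24.0 in shGFP. Every shNCOR library lay far above every shGFP library, with a log2 fold change of 2.08 ± 0.22 (SE; limma, adjusted p = 7.18e-10). The sequence under this peak is the one printed above with the direct repeat, and 0.776% of all RefSeq promoter windows of this length hold that repeat. All 11 peaks assigned to Rarb were called higher, from 1.12 to 2.09, and the groups did not overlap at any of them. A peak 22.8 kb upstream of the nearest start, in an intron of a longer Rarb transcript, had 170, 134 and 159 in shNCOR. In shGFP it had 24.6, 45.9 and 29.5. A peak 61.9 kb into the gene had 137, 130 and 121 in shNCOR and 30.2, 32.8 and 30.4 in shGFP. Together with peaks assigned to the neighbour Top2b they formed a run of 13 consecutive tested peaks, all higher, over 191.2 kb (chr14:16448699-16639921), the longest run in either direction. Rarb RNA was at 10.3, 10.6 and 10.5 RPKM in shNCOR and 0.694, 0.860 and 0.513 RPKM in shGFP, whereas Top2b RNA, at 29.1 ± 0.993 RPKM in shNCOR and 27.4 ± 1.46 RPKM in shGFP, was not called (SD, n = 3 each; adjusted p = 0.14).

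Calls at other genes of retinoid signalling were scattered. In the list of 14 retinoid receptors and targets, 12 genes had 75 tested peaks, of which 16 were higher and 2 lower, with a median of 0.13. Outside Rarb 5 of 64 peaks were higher (7.81%, against 4.64% of all peaks) and 2 lower (3.12%, against 4.04%), with a median of 0.08. Tgm2, a transglutaminase induced by retinoic acid, had 3 higher calls among 9 peaks, and Rara had 1 among 8. Dhrs3, which reduces retinal and is raised by retinoic acid in many cells, had 1 higher and 2 lower calls among 16 peaks. Windows with the direct repeat found at Rarb overlapped 51 tested peaks, 3 of them higher (5.88%) and 1 lower (1.96%), against 3.23% and 1.41% of the promoter peaks without it. The median log2 fold change was 0.14 over these and 0.08 over the 8709 promoter peaks without it.

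Tbl1xr1, which encodes a subunit of the corepressor complex itself, had 14 peaks called higher, the most of any gene as deposited, ahead of Rarb with 11. Without shGFP library 2 it had 9 and Rarb 11, and without shGFP library 3 or shNCOR library 3 both had 11. Among its 25 tested peaks 14 were called higher and none lower, and 11 of them followed one another over 169.5 kb upstream of the gene (chr3:21840810-22010318). The most changed one, 114.3 kb before the start, had 145, 153 and 162 in shNCOR and 41.4, 60.9 and 49.8 in shGFP, a log2 fold change of 1.52 ± 0.16 (limma, adjusted p = 1.16e-09). The strongest site of the cluster, 140.6 kb before the start, had 350, 323 and 238 in shNCOR and 179, 154 and 184 in shGFP. The 2 peaks nearest the start were not called (0.07 and 0.09), and the peak 808 bp downstream was (0.67 ± 0.19, adjusted p = 0.0147). Of the other subunits, Coro2a had 1 higher call among 8 peaks. Over the list of 8 subunits, 15 of 58 peaks were higher, 14 of them at Tbl1xr1, and 1 was lower. These were 25.9% and 1.72%, against 4.64% and 4.04% of all peaks. Without shGFP library 2, 9 peaks of the list were higher.

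**Figure D2:**
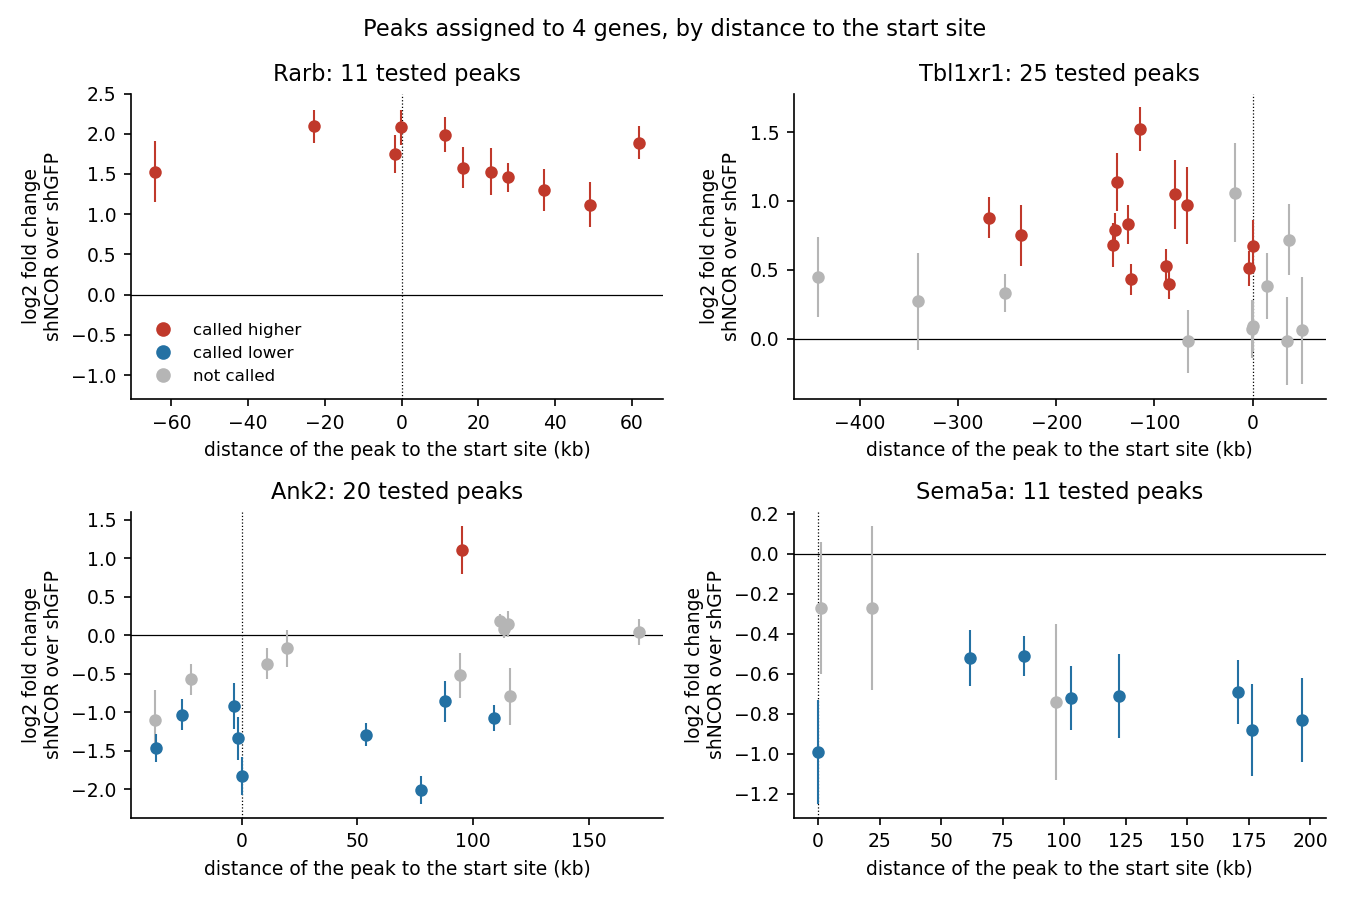
Log2 fold change of shNCOR over shGFP with its SE (vertical axis) against the distance of each tested peak to the start site (kb, dotted line at 0) for Rarb, Tbl1xr1, Ank2 and Sema5a. All 11 Rarb peaks are called higher, 14 of 25 Tbl1xr1 peaks are called higher mostly upstream, 9 of 20 Ank2 peaks are called lower beside 1 higher call, and 8 of 11 Sema5a peaks are called lower.

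Among targets of the lipid-sensing receptors, Abca1, which exports cholesterol and is the best known LXR target, stood out. Its intron held a peak 10.0 kb past the start (chr4:53149737-53150039) with 66.0, 57.8 and 78.7 in shNCOR and 6.71, 13.1 and 17.5 in shGFP. That is a log2 fold change of 2.10 ± 0.30 (limma, adjusted p = 2.09e-06), and a peak of its own was listed there in 3 of 3 shNCOR libraries and 1 of 3 shGFP libraries. The promoter peak had 180, 163 and 155 in shNCOR and 105, 107 and 113 in shGFP, again without overlap (0.59 ± 0.13, adjusted p = 0.00133). Of 9 Abca1 peaks 7 were higher and 1 was lower. That lower one lay 27.4 kb upstream, with 42.2, 29.7 and 38.1 in shNCOR and 66.0, 95.6 and 64.5 in shGFP. Over the list of 20 LXR genes 9 of 74 peaks were higher and 1 was lower (median 0.09). These were 12.2% and 1.35%, against 4.64% and 4.04% of all peaks. Outside Abca1 the only higher calls were 1 each at Abcg8 and Smpdl3a.

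The list of 20 PPAR genes gave 13 higher and 3 lower calls among 98 peaks, at 10 genes in either direction. These were 13.3% and 3.06%, against 4.64% and 4.04% of all peaks. Plin2, which coats lipid droplets, had 256, 229 and 250 in shNCOR and 188, 175 and 149 in shGFP at its promoter (0.51 ± 0.11, limma, adjusted p = 0.00136). Hilpda, another lipid droplet protein, had 3 higher calls among 5 peaks, and Klf10 had a peak 7.7 kb into the gene at 58.1, 54.5 and 41.9 in shNCOR and 15.7, 25.3 and 20.3 in shGFP. Fabp4 and Fabp5, fatty acid carriers, each had 1 lower call, of -1.37 ± 0.28 and -1.27 ± 0.30. The scavenger receptor Cd36 had 92.4, 57.8 and 59.6 in shNCOR and 72.7, 45.0 and 57.2 in shGFP at its promoter, with overlap and no call (adjusted p = 0.494), although 2 of its 10 peaks were higher. Higher calls on this list numbered 4 without shGFP library 2, 5 without shGFP library 3, 7 without shNCOR library 1 or 2, and 7 after TMM scaling or scaling to the sum over tested peaks.

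Genes of osteoclasts, the bone-resorbing cells that RAW264.7 cells can form, held 20 higher and 3 lower calls among 129 peaks. These were 15.5% and 2.33%, against 4.64% and 4.04% of all peaks. Atp6v0d2, a subunit of the proton pump needed for osteoclast fusion, had 106, 125 and 112 in shNCOR against 30.2, 30.9 and 36.0 in shGFP at its promoter. The log2 fold change was 1.67 ± 0.16 (limma, adjusted p = 7.62e-11), the highest of the list. Mitf, a transcription factor of osteoclasts, had 4 higher calls among 23 peaks, Nfatc1, the factor that drives their formation, 3 among 14, Ctsk, the collagen-degrading protease, 2 among 6, and Tcirg1, another proton pump subunit, 3 among 5. Car2, carbonic anhydrase, had 257, 185 and 212 in shNCOR and 162, 171 and 175 in shGFP at its start. Those groups did not overlap, yet the peak missed the threshold (0.34 ± 0.13, adjusted p = 0.0845), and it passed when only the 6 libraries were fitted. The higher calls on this list numbered 10 without shGFP library 2, 12 without shGFP library 3 and 13 without shNCOR library 1 or after quantile normalization. At Mitf they numbered 2 without shGFP library 2 or 3 or shNCOR library 1, and at Nfatc1 1 without shGFP library 1 or after quantile normalization. Runx2, the factor of bone-forming cells, had 6 higher calls among 14 peaks (3 without shGFP library 2, 4 without shNCOR library 1).

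Gpnmb, a lysosomal membrane glycoprotein of lipid-laden macrophages and osteoclasts, had 265, 266 and 246 in shNCOR and 148, 142 and 131 in shGFP at its promoter. All 3 shNCOR values were close together and well above shGFP (0.87 ± 0.12, limma, adjusted p = 5.58e-07), and 5 of its 7 peaks were higher. The list of lysosome genes gave 9 higher and 3 lower calls among 136 peaks (6.62% and 2.21%, near the 4.64% and 4.04% of all peaks), 3 of the higher ones at Lipa, the acid lipase. The higher count was 3 without shGFP library 2, 4 without shGFP library 3, 5 without shNCOR library 2 or 3, 4 after quantile normalization and 5 after scaling to the sum over tested peaks.

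Cxcr4, the receptor for CXCL12 that retains cells in the bone marrow, had 6 higher calls among 10 peaks. Its promoter had 85.8, 119 and 96.4 in shNCOR and 59.3, 50.6 and 48.9 in shGFP (0.86 ± 0.18, limma, adjusted p = 0.00125). A peak 1.3 kb past the start had 72.6, 97.4 and 103 in shNCOR and 35.8, 48.8 and 42.4 in shGFP. A group of peaks 112.9 to 155.2 kb upstream included 4 more of the higher calls. On the list of 20 chemokine receptors and integrins 16 of 123 peaks were higher and 5 lower, with Ccr1 (4 of 9 peaks) and Itgav (3 of 10) next to Cxcr4. These were 13.0% and 4.07% of the list's peaks, against 4.64% and 4.04% of all peaks. Itga4, integrin alpha 4, carried the most lowered peak of the list, 109.5 kb from its start, with 10.6, 0 and 1.27 in shNCOR and 48.1, 45.9 and 56.2 in shGFP. The log2 fold change was -2.80 ± 0.38 (adjusted p = 5.37e-07), while Itga4 RNA was not called (0.14 ± 0.06, adjusted p = 0.0707).

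The most raised peak of all lay 26.9 kb upstream of Ranbp3l (chr15:8940839-8941319). It had 85.8, 72.6 and 127 in shNCOR and 6.71, 13.1 and 4.61 in shGFP, a log2 fold change of 2.94 ± 0.35 (limma, adjusted p = 3.20e-08). A peak was listed there in 3 of 3 shNCOR libraries and in 0 of 3 shGFP libraries, and Ranbp3l RNA stood at 5.09 ± 0.677 RPKM in shNCOR and 0.154 ± 0.107 RPKM in shGFP (SD, n = 3 each). Of the 12 most raised peaks 5 lay in an LTR, among them one 203.8 kb from Olfm3 with 80.5, 71.0 and 83.7 in shNCOR and 17.9, 9.37 and 13.8 in shGFP. Another, 123.6 kb into Col14a1, had 33.0, 38.0 and 35.5 in shNCOR and 2.24, 3.75 and 7.38 in shGFP. As given above, LTR peaks as a class were higher at 3.78%, under the 4.64% of all peaks.

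Opcml, a cell adhesion gene of the nervous system, and Map4k3, a kinase of amino acid sensing, also opened over several sites. Opcml had 177, 216 and 189 in shNCOR and 91.7, 89.1 and 75.6 in shGFP at its promoter, and 6 of 10 peaks were higher (3 without shGFP library 2 or shNCOR library 3, 4 without shNCOR library 1). Map4k3 had 8 higher calls among 13 peaks, all upstream, and none at its promoter (0.32). The one 44.8 kb upstream had 202, 178 and 176 in shNCOR and 97.3, 92.8 and 119 in shGFP.

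**Figure D3:**
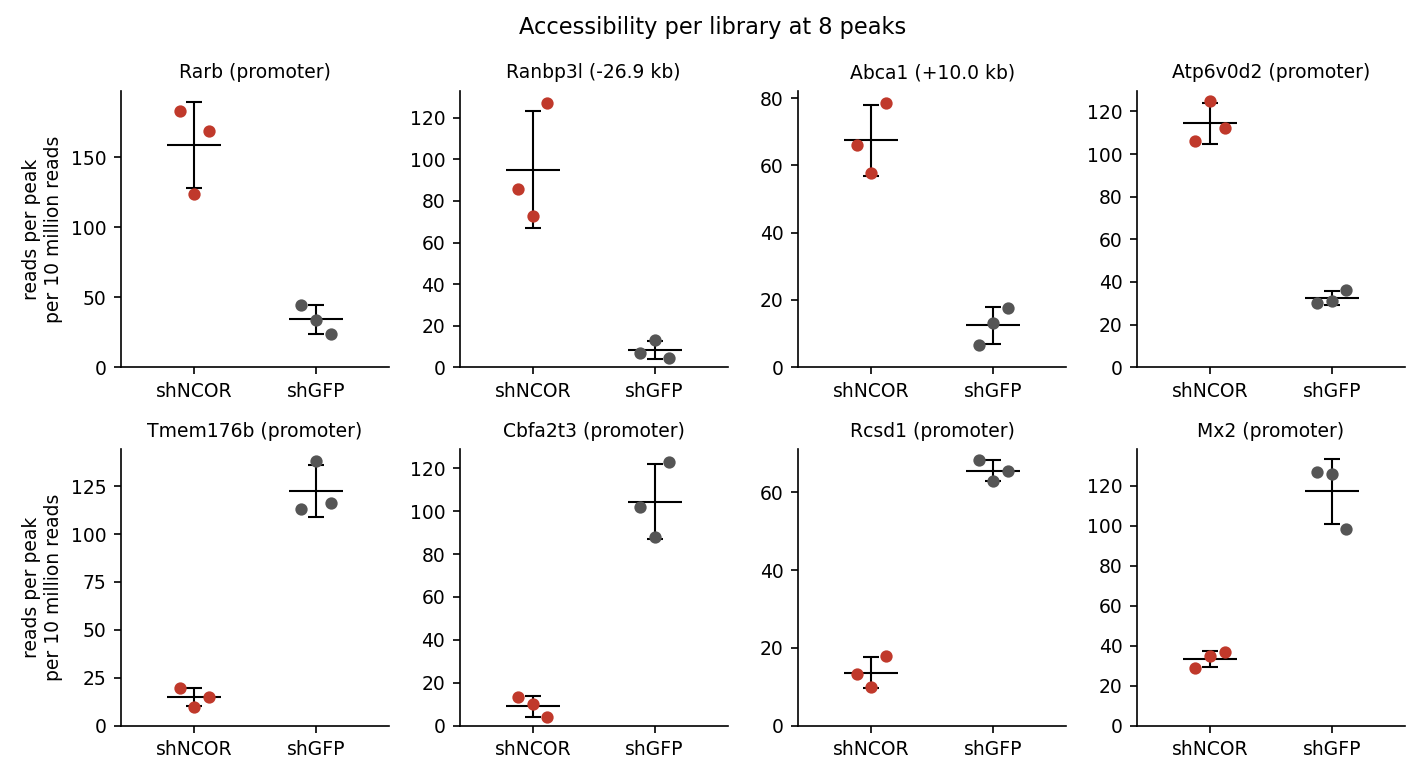
Accessibility in each library (points, reads per peak per 10000000 reads, axes from 0) with the mean and SD of 3 libraries, shNCOR left and shGFP right, at 4 peaks called higher and 4 called lower. The 2 groups do not overlap at any of the 8 peaks, as at Atp6v0d2 (106 to 125 in shNCOR and 30.2 to 36.0 in shGFP) and Tmem176b (9.90 to 19.8 in shNCOR and 113 to 138 in shGFP).

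The most lowered peak lay in an intron of Mdga2 (chr12:66796053-66796493), a cell adhesion gene whose RNA was listed at or near 0. It had 2.64, 6.6 and 2.54 in shNCOR and 102, 116 and 122 in shGFP, a log2 fold change of -3.75 ± 0.26 (limma, adjusted p = 1.59e-15), so almost no reads were left in any shNCOR library. At the promoter of Cbfa2t3, a corepressor of the ETO family, 13.2, 9.90 and 3.81 were found in shNCOR and 102, 88.1 and 123 in shGFP (-3.02 ± 0.29, adjusted p = 7.83e-11). Its RNA was low throughout, at 0.00433 ± 0.00751 RPKM in shNCOR and 0.164 ± 0.0267 RPKM in shGFP. All 5 peaks assigned to Adam6b were lower. They lay over 63.6 kb of chromosome 12 (chr12:113424305-113487952), in the immunoglobulin heavy chain region, and the first had 5.28, 4.95 and 10.2 in shNCOR and 91.7, 77.8 and 92.2 in shGFP. A peak 30.8 kb upstream of Rpp14, the gene of the nearest start site, had 5.28, 8.25 and 7.61 in shNCOR and 85.0, 63.8 and 93.1 in shGFP. Rpp14 RNA stood at 20.4 ± 0.598 RPKM in shNCOR and 22.6 ± 1.47 RPKM in shGFP. Of the 12 most lowered peaks 2 lay within 1 kb of a start site. Folds of such sites depend on the pseudocount of 5 and understate the change.

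Tmem176b and its neighbour Tmem176a encode membrane proteins of monocytes and dendritic cells. The peak at the Tmem176b start fell most among promoters after Cbfa2t3, with 19.8, 9.90 and 15.2 in shNCOR and 113, 138 and 116 in shGFP (-2.70 ± 0.28, limma, adjusted p = 5.73e-10). Tmem176b RNA was at 5.89 ± 0.382 RPKM in shNCOR and 79.0 ± 2.86 RPKM in shGFP. Tmem176a RNA was at 1.06 ± 0.0889 RPKM in shNCOR and 16.3 ± 1.09 RPKM in shGFP. No tested peak within 1 kb was assigned to Tmem176a, but each peak is assigned to its nearest gene only, so a peak given to Tmem176b may also cover the Tmem176a start.

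Peaks of interferon-stimulated genes were called in 1 direction, lower in shNCOR. Of the 40 genes listed, 37 had 84 tested peaks, and 19 of these were lower (22.6%, against 4.04% of all peaks) and 0 higher. Of the 35 peaks within 1 kb of a start 15 were lower, against 1.51% of all such peaks, and 29 had a negative log2 fold change, with a median of -0.49. This list was chosen with its RNA results known, so its count is no independent evidence of the direction. The promoter of Mx2, an antiviral GTPase, had 29.0, 34.7 and 36.8 in shNCOR and 127, 126 and 98.7 in shGFP (-1.66 ± 0.19, limma, adjusted p = 5.03e-09). The promoter of Rsad2, which encodes viperin, had 18.5, 14.8 and 8.88 in shNCOR and 57.0, 45.9 and 42.4 in shGFP (-1.51, adjusted p = 0.000268). A second Rsad2 site, 17.0 kb from the start, had 0, 1.65 and 12.7 in shNCOR and 43.6, 41.2 and 37.8 in shGFP. At Ifi44 the values were 13.2, 21.5 and 3.81 in shNCOR and 52.5, 43.1 and 27.7 in shGFP, and at Rtp4 44.9, 54.5 and 44.4 in shNCOR and 88.3, 75.0 and 98.7 in shGFP, so both fell without overlap. Among promoters chosen after their values were seen, Cmpk2 (-0.95), Ifih1 (-0.90), Trim30a (-0.65 and -0.54) and Irf9 (-0.45), a part of the complex that binds the response element, were lower as well.

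Other interferon-stimulated promoters were not called. Stat2 had 276, 299 and 268 in shNCOR and 243, 251 and 259 in shGFP at its start and was not called (0.16). Bst2 (0.02) and Dhx58 (0.14) were not called either. The RNA of 33 of the 34 listed genes tested was lower, against 20.0% of all 10789 genes tested. Of the listed genes, 14 had lower RNA but no called promoter peak. The number of lower promoter peaks was 11 to 16 over all other settings tried. Over all promoters, the response element was found in 2.98% of RefSeq windows. Such windows overlapped 247 tested peaks. Of these 11 were lower (4.45%) and 4 higher (1.62%), against 1.33% and 3.29% of the 8513 promoter peaks without the element. The median log2 fold change was 0.07 over the peaks with the element and 0.08 over those without it, so as a class they did not shift. The lower ones with it included Calhm6, Rsad2, Irgm1, Tnfsf13b, Gbp7, Clec2d, Trim30a, Rnase6 and Socs1. Promoter peaks with an AP-1 motif (476, in 6.75% of windows) were higher at 5.04% and lower at 3.15%, against 3.14% and 1.32% without it. This was not particular to AP-1. With the NF-kB motif (149 peaks) the shares were 5.37% and 3.36%, against 3.21% and 1.38% without it. The E-box, the EGR motif and the direct repeat with 4 bases had smaller shares with the motif than without it in both directions. These shares are descriptions of letters in 250 bases and show no binding.

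Fcgr1, the high-affinity receptor for IgG, had 132, 173 and 121 in shNCOR and 210, 243 and 206 in shGFP at its start (-0.62 ± 0.12, limma, adjusted p = 0.000259). Of its 4 peaks 3 were lower, and its RNA stood at 0.416 ± 0.0687 RPKM in shNCOR and 17.5 ± 0.112 RPKM in shGFP. The promoter stayed open in every shNCOR library although its RNA was nearly gone. In the list of 8 receptors and signalling genes 4 of 47 peaks were lower (8.51%, against 4.04% of all peaks) and 1, at Syk, was higher. Of the 30 peaks of MHC class I and antigen processing genes 2 were lower (6.67%), both at H2-T24. RNA was lower at 15 of 16 such genes, against 20.0% of all genes tested. The H2-T24 promoter had 110, 111 and 119 in shNCOR and 168, 198 and 206 in shGFP. Rnase4, a secreted ribonuclease, had 46.2, 33.0 and 41.9 in shNCOR and 83.9, 82.5 and 87.6 in shGFP at its start, and Ifi27l2a 52.8, 52.8 and 52.0 in shNCOR and 69.3, 91.9 and 111 in shGFP.

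Several loci closed over many sites. Ank2, ankyrin 2, had 9 lower calls and 1 higher call among 20 peaks. The most lowered, 77.4 kb into the gene, had 19.8, 42.9 and 27.9 in shNCOR and 144, 129 and 124 in shGFP (-2.01 ± 0.18, limma, adjusted p = 6.67e-12). Sema5a, a semaphorin, had 8 lower calls among 11 peaks (5 without shGFP library 1), from its start to 196.6 kb into the gene. Arhgap24, which inactivates Rac, had 8 among 14, and its promoter had 60.7, 74.3 and 82.5 in shNCOR and 134, 160 and 134 in shGFP. Ly6e, an interferon-inducible surface protein, had 7 among 10, and the site 35.3 kb upstream had 62.0, 69.3 and 48.2 in shNCOR and 144, 151 and 146 in shGFP. Klf4, a transcription factor of monocytes, had 7 among 28, none within 100 kb of its start. Without shGFP library 1, 2 or 3 or shNCOR library 2 or 3 that count was 2 to 4. Rcsd1, a regulator of actin capping, had 6 among 7, and its promoter had 13.2, 9.90 and 17.8 in shNCOR and 68.2, 62.8 and 65.5 in shGFP (-1.94 ± 0.30, adjusted p = 6.40e-06). RNA of Sema5a (-1.10), Arhgap24 (-1.01), Ly6e (-0.65), Klf4 (-1.52) and Rcsd1 (-2.37) was lower as well, and Ank2 RNA was under the limit for testing.

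The cell cycle list gave 7 lower and 1 higher call among 84 peaks (8.33% and 1.19%, against 4.04% and 4.64% of all peaks). Of the lower ones 6 belonged to Ccnd1, cyclin D1. Its site 108.2 kb from the start had 43.5, 16.5 and 41.9 in shNCOR and 204, 130 and 149 in shGFP (-2.16 ± 0.22, limma, adjusted p = 4.30e-10). Ccnd1 RNA was at 79.4 ± 2.06 RPKM in shNCOR and 184 ± 1.72 RPKM in shGFP. None of the 27 promoter peaks of this list was higher and 1 was lower. Genes driven by NF-kB and AP-1 showed no common direction, with 9 higher and 8 lower calls among 165 peaks. These shares, 5.45% and 4.85%, were near the 4.64% and 4.04% of all peaks. Higher ones included 3 at the chemokine gene Ccl2 and the Ccl7 promoter (34.3, 26.4 and 35.5 in shNCOR and 19.0, 8.44 and 9.22 in shGFP), and lower ones lay at Cd40, Ccl4, Socs3, Tnf and Tnfaip3. Tlr4, the receptor for lipopolysaccharide, had 4 higher calls among 8 peaks, but 1 without shGFP library 2 and 2 without shGFP library 1 or 3 or shNCOR library 3.

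Genes of macrophage identity had 14 higher and 13 lower calls among 247 peaks. These shares, 5.67% and 5.26%, were near the 4.64% and 4.04% of all peaks. Maf, a macrophage transcription factor whose RNA was listed at or near 0, had a distal peak with 21.1, 23.1 and 20.3 in shNCOR and 60.4, 59.1 and 75.6 in shGFP. Alternative activation genes had 5 higher and 9 lower calls among 102 peaks (4.9% and 8.82%). The lower ones were 7 at Klf4 and 1 each at Myc and Socs1. Clock genes had 8 higher calls and 1 lower call among 65 peaks (12.3% and 1.54%, against 4.64% and 4.04% of all peaks). Of these, 3 lay at Nr1d1, whose product REV-ERB alpha itself recruits NCOR, and the site 8.1 kb upstream had 236, 224 and 227 in shNCOR and 163, 151 and 144 in shGFP (0.57 ± 0.11, limma, adjusted p = 0.000335). The clock count was 2 without shGFP library 2, and 3 to 5 without shGFP library 3 or any 1 of the shNCOR libraries. It was 4 after TMM scaling or scaling to the sum over tested peaks, the last with 3 lower calls, 5 after quantile normalization, with a pseudocount of 1 or without the filter, and 3 with thinned reads. Fatty acid synthesis genes had 3 higher and 2 lower calls among 70 peaks (4.29% and 2.86%), and cholesterol synthesis genes none among 60. Lists of other cell types held few tested peaks. There were 2 lower calls of 40 peaks (5.0%) for dendritic cells and MHC class II and 1 higher of 13 (7.69%) for neutrophils and mast cells. Lymphocyte genes had 2 lower of 18 (11.1%), both at Ms4a1, and fibroblast and epithelial genes 0 of 17. Of all peaks 4.64% were higher and 4.04% lower. No tested peak within 1 kb was assigned to Mmp12, Acp5 or Ltb. The promoter peaks of Clec7a (0.67 ± 0.23, limma, adjusted p = 0.057) and Vegfc (0.95 ± 0.39, adjusted p = 0.12) were not called.

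**Figure D4:**
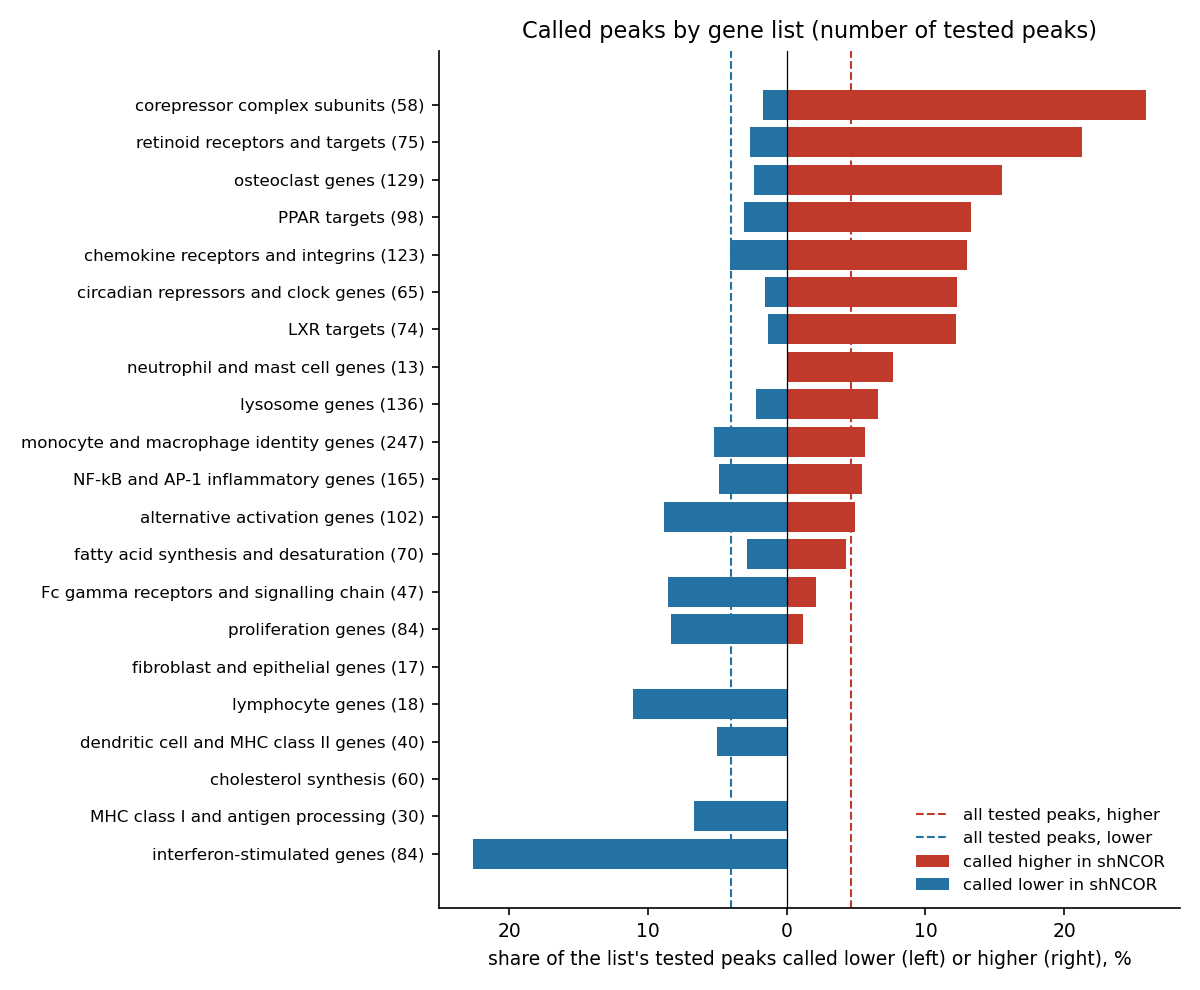
Share of the tested peaks of each of 21 gene lists called lower in shNCOR (left, %) or higher (right, %), with the number of peaks in brackets and dashed lines at the shares of all tested peaks (4.04% and 4.64%). Corepressor subunits (25.9%) and retinoid genes (21.3%) reach furthest to the right, and interferon-stimulated genes (22.6%) furthest to the left.

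The shNCOR and shSMRT libraries were also compared directly, as a contrast in the same fit of all 9 libraries. The shGFP values enter its estimate of the spread and, with shNCOR, the choice of peaks, in which shSMRT had no part. They differed at 12241 of the 51018 peaks (24.0%), with shNCOR above shSMRT at 8953 and below it at 3288. This split rests on the scaling: after TMM scaling shNCOR was above at 3452 peaks and below at 4324, and after quantile normalization above at 2264 and below at 3380. The share of reads in tested peaks was 54.07 to 54.88% in shNCOR and 47.09 to 49.22% in shSMRT, and the median difference over all peaks was 0.12 as deposited and 0.00 after TMM scaling. The Rarb promoter was at 159 ± 31.1 in shNCOR and 35.7 ± 10.6 in shSMRT (SD, n = 3 each), a difference of 2.02 ± 0.22 (limma, adjusted p = 9.90e-10), and 10 of the 11 Rarb peaks differed, also under each of the other scalings. The Ranbp3l site, at 95.1 ± 28.3 in shNCOR and 5.12 ± 1.73 in shSMRT, and the Gpnmb promoter, at 259 ± 11.2 in shNCOR and 106 ± 9.65 in shSMRT, differed as well (adjusted p = 1.15e-09 and 2.75e-11). So did the most lowered Ank2 site, at 30.2 ± 11.7 in shNCOR and 140 ± 13.2 in shSMRT. At Atp6v0d2 (114 ± 10.2 in shNCOR and 149 ± 9.82 in shSMRT) the difference was not called as deposited (-0.37 ± 0.16, limma, adjusted p = 0.0883), but was after TMM scaling (-0.49 ± 0.16, adjusted p = 0.027), after quantile normalization (-0.55) and after scaling to the sum over tested peaks (-0.54). None was called at Tmem176b (15.0 ± 4.95 in shNCOR and 18.8 ± 8.43 in shSMRT, -0.23 ± 0.28, adjusted p = 0.599). None was called at 12 of the 13 Map4k3 peaks and at 9 of the 10 Ly6e peaks either, which does not show that the hairpins act alike there. At the peak over the Mx2 start shSMRT lay between, with 33.5 ± 4.00 in shNCOR, 69.5 ± 4.41 in shSMRT and 117 ± 16.1 in shGFP. It was the 1 of 3 Mx2 peaks that differed. The Mx2 peak 876 bp upstream had 74.6 ± 25.3 in shNCOR, 78.5 ± 2.35 in shSMRT and 150 ± 28.5 in shGFP. There no difference between the hairpins was called (-0.13 ± 0.17, limma, adjusted p = 0.649).

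RNA of the genes nearest to called peaks was in part not called, and where it was called it shared the direction of the peaks at 79.0% of 971 genes. RNA was tested for 10789 genes in separate libraries, of which 17.6% were higher and 20.0% lower in shNCOR. Of the 1131 tested genes whose called peaks were all higher, 38.5% had higher and 13.4% lower RNA. Of the 697 genes whose called peaks were all lower, 7.46% had higher and 47.6% lower RNA, against 15.9% and 19.1% of the 7894 genes with no called peak. For peaks within 1 kb of the start the shares were 49.2% and 9.76% of 297 genes with higher peaks, and 0% and 76.1% of 113 genes with lower peaks. From the side of RNA, 45 genes with a tested promoter peak had RNA higher by at least 1 on the log2 scale, and 33 of them had a higher promoter peak and 0 a lower one. Of 82 genes with RNA lower by as much, 35 had a lower promoter peak and 0 a higher one, while 47 had no call.

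**Figure D5:**
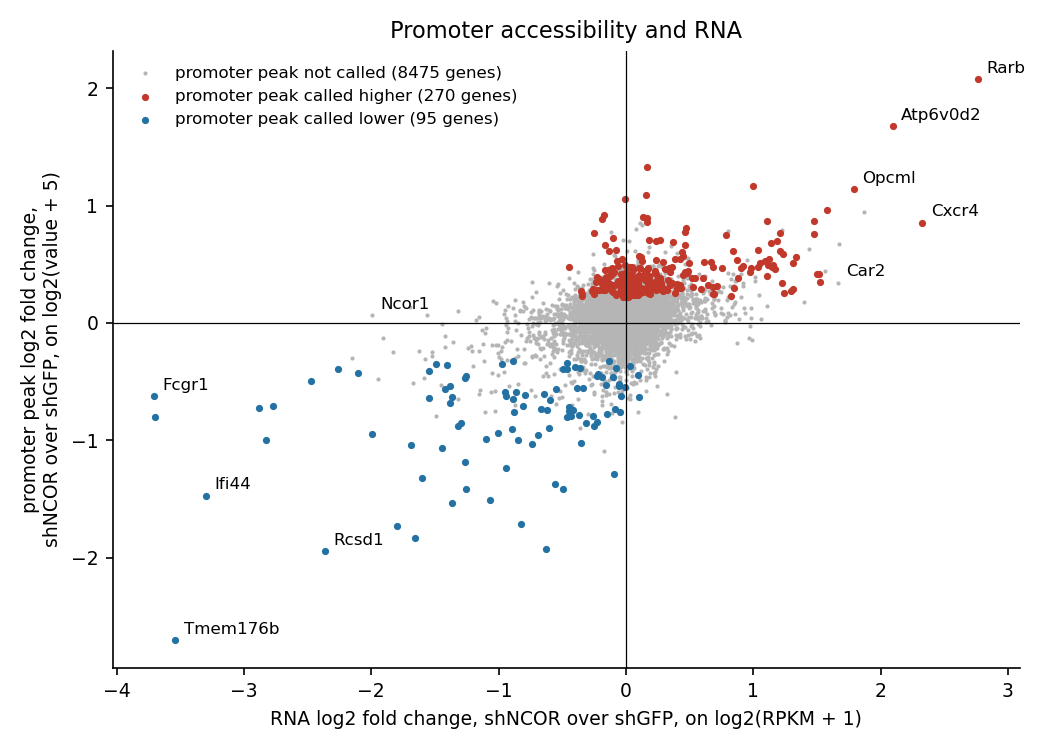
Log2 fold change of the promoter peak nearest to the start (vertical axis, on log2(value + 5)) against that of RNA (horizontal axis, on log2(RPKM + 1)), shNCOR over shGFP, for each gene with both. None of the genes with a lower promoter peak had RNA called higher, and Rarb (2.08 and 2.77) and Tmem176b (-2.70 and -3.54) lie at the ends of the vertical axis.

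Exceptions were found as well. Tlr2 had 3 higher peaks and Helz2, an interferon-inducible coactivator, had 2, with RNA of -0.18 and -0.67. The promoter of Mlxipl, a factor of sugar-responsive lipid synthesis, had 29.0, 39.6 and 39.3 in shNCOR and 11.2, 15.0 and 12.9 in shGFP (1.18 ± 0.30, limma, adjusted p = 0.00717), while its RNA was listed at or near 0 in both groups.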

How the data were processed

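ATAC-seq was measured in 9 libraries of RAW264.7 cells (3 shNCOR, 3 shSMRT and 3 shGFP), and RNA-seq in separate libraries of the same groups. The deposited ATAC table gives for each of 51984 merged peaks the reads per library scaled to 10000000 reads by the authors, per the file headers, with HOMER-style annotation to mm10. The deposited RNA table gives RPKM values per gene as the authors normalized them, per the file headers. Tools and builds given by the submitters' processing notes, without roles or versions, are DESeq2, MACS2, HOMER, HISAT2, Bowtie2, mm10 and mm9. Whole reads were recovered from the ATAC steps for 100% of low values (within 0.1 of a read), so counting error is larger in the shallower shNCOR libraries.

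Peaks on chrM (4) and 1 row without a number were left out, and the peaks kept reached 10 in 3 or more of the 6 shNCOR and shGFP libraries. Values were tested as log2(value + 5) with limma 3.58.1 in R 4.3.3 (trended empirical Bayes, all 9 libraries in 1 fit, contrast shNCOR minus shGFP), at a Benjamini-Hochberg adjusted p under 0.05 over all 51018 peaks. RNA was tested in the same way on log2(RPKM + 1) for 10789 genes with at least 1 RPKM in 3 of 9 libraries. Every adjusted p is from limma, every ± after a log2 fold change is its SE, and all folds are on these scales and understate changes of low values. A call "without overlap" has all shNCOR values on 1 side of all shGFP values. Peaks belong to the gene of the nearest start site in the table. The fit was tested on simulated data.

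The peak set, the gene lists and the motifs were chosen with earlier results of these data known. By the naming rule, peaks were chosen at the Ncor1 start, among the 12 most raised and the 12 most lowered calls without overlap (by log2 fold change), among up to 2 called peaks in each direction per list, at the 6 genes with most calls in each direction, and at the promoters of genes known from the RNA of this series. Other named sites were chosen after their values were seen. Same-numbered libraries did not deviate together (r = 0.001, -0.011 and 0.023), so the numbers were not used for pairing. Other filters, pseudocounts, scalings, left-out libraries, voom and thinned reads were tried. A few genes are not reported here.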

Additional observations from a re-analysis of the deposited data

Results flagged for a closer look

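Reads in the peaks of the mitochondrial chromosome, which no comparison uses, made up 0.61, 0.75 and 0.58% of the reads in shNCOR and 0.51, 0.43 and 0.43% in shGFP, with means of 0.647% and 0.457%. They are given here because all shNCOR libraries lay above all shGFP libraries (exact permutation test, two-sided, p = 0.1, the smallest that 3 against 3 allows). Their part in the results was not tested.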

How the results depend on the processing

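Counts of called peaks stayed within 1.5 times 2368 higher and 2060 lower under the other pseudocounts, filters, array weights, 6 libraries alone, TMM scaling (1788 and 2340), quantile normalization (1685 and 2054), voom (2640 and 1698) and thinned reads (1746 and 1549), the last 2 chosen after seeing the data. Scaling to the sum over tested peaks gave 1500 higher and 2528 lower (the cause was not tested). Leaving out 1 library gave 1226 to 1787 higher and 1149 to 2093 lower calls, with fewer libraries in each fit. The replicate block gave 2204 higher and 2036 lower calls, and the numbers pair no samples. RNA and called peaks shared their direction at 79.0% of genes called in both, and at 84.6% with peaks within 10 kb (the cause was not tested). Of 92 named peaks 66 stayed on their side of the threshold in every setting, and 0 reversed. Against shSMRT, shNCOR was above at 8953 and below at 3288 peaks as deposited, above at 3452 and below at 4324 after TMM scaling, above at 2264 and below at 3380 after quantile normalization, and above at 2519 and below at 4811 after scaling to the sum over tested peaks (chosen after seeing the data). Without 1 shNCOR or shSMRT library it was above at 6364 to 7848 and below at 2315 to 3402, and with the replicate block above at 8520 and below at 3263. The clock genes had 4 higher calls with the replicate block. The planned edgeR test was not run, and limma voom on the recovered reads was run in its place. The shNCOR libraries hold fewer reads, so low values in them carry the larger counting error.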

Other observations

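The 4 most open tested peaks were all called higher in shNCOR. The largest, in the ribosomal RNA gene Rn45s, had 11391, 12903 and 10642 in shNCOR and 9142, 7878 and 7964 in shGFP (0.48 ± 0.07, limma, adjusted p = 3.10e-06), and shSMRT stood at 11580 ± 1414 (SD, n = 3). A peak near Col19a1 (chr1:24611602-24616138) had 1411, 1822 and 1321 in shNCOR and 1109, 965 and 921 in shGFP. Ribosomal DNA is present in many copies that reads cannot tell apart, so the Rn45s values are sums over copies. The source of the reads at the Col19a1 peak was not tested.

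Some called peaks lay next to each other. Runs of at least 3 consecutive tested peaks called in 1 direction numbered 54 higher and 62 lower, the longest with 13 and 7 peaks. They held 206 of the 2368 higher calls and 221 of the 2060 lower calls, so most calls lay outside such runs. The number of runs to be found without any grouping was not worked out. Tox2, a transcription factor gene, had all of its 5 peaks lower, from -2.12 to -1.28, and Slc24a3, an ion exchanger, 5 of 7. A Slc24a3 intron site had 21.1, 38.0 and 36.8 in shNCOR and 169, 156 and 171 in shGFP (-2.24 ± 0.17, limma, adjusted p = 1.99e-14). Both loci were picked after their values were seen.

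In the authors' peak lists per library, 133 tested peaks were listed in 3 of 3 shNCOR and 0 of 3 shGFP libraries, and 75 of them were called higher. The converse pattern held at 1634 peaks, of which 476 were called lower. The shGFP libraries are deeper, and the part of depth in this difference was not tested.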
